A study of Arabidopsis thaliana with 16 samples.

Results

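The genes described here are the 9 Arabidopsis basic leucine zipper (bZIP) transcription factors of groups C and S1, chosen by family membership, by a rule that uses no measured value, though with earlier results of these data known. They are 9 of 27416 genes counted in whole seedlings exposed to ethanol vapour. The S1 group holds bZIP1 (AT5G49450), bZIP2 (AT2G18160), bZIP11 (AT4G34590), bZIP44 (AT1G75390) and bZIP53 (AT3G62420). The C group holds bZIP9 (AT5G24800), bZIP10 (AT4G02640), bZIP25 (AT3G54620) and bZIP63 (AT5G28770).

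Factors of the C group form heterodimers with factors of the S1 group, and these pairs bind ACGT-type elements in genes of amino acid and sugar metabolism. In Arabidopsis the kinase SnRK1, which is active when carbon or energy is short, phosphorylates bZIP63 and through these factors raises transcripts such as ASN1 and PRODH1. Translation of the S1 factors is held down by sucrose through a short conserved reading frame ahead of the main one, so their protein levels need not follow their transcript levels.

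Arabidopsis thaliana seedlings on agar plates at 22 °C received ethanol as a gas (EtOH), either starting 13 d old and lasting 1 d or starting 11 d old and lasting 3 d, and each duration has a control group labelled moc, a term the labels do not spell out. No genotype is given in the labels, and no cold step is given for these samples although the series title names freezing stress. RNA of the whole plant was sequenced by Lasy-Seq, which reads mainly the 3′ ends of transcripts. The labels give 4 libraries in each of the groups moc_1d, EtOH_1d, moc_3d and EtOH_3d, without saying that plates were separate. The p-values therefore cover only the spread among samples, which may be technical.

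The counts given for moc_1d replicate 1 were the same as those for moc_3d replicate 3 at every gene, and both columns were left out because the labels do not say which is right. Each duration thus had 4 ethanol and 3 control libraries, 14 in all, with 3695511 to 15943927 counts each. EtOH_3d replicate 2, the shallowest library, stood apart on the first principal component, and moc_3d replicate 1 on the second. Shoot marker transcripts (5 genes, including Rubisco subunit RBCS1A) summed to between 32927 and 38050 CPM (counts scaled to a common library total) in each library. Root marker transcripts (6 genes, including PYK10) summed to 1262 to 1348 CPM in moc_3d and to 1133 to 1236 CPM in EtOH_3d, and the part of this in the results was not tested. Most of that sum was PYK10 alone, with means of 1188 CPM in moc_3d and 1115 CPM in EtOH_3d. Of these markers 0 of 5 shoot and 0 of 6 root genes were called at 3 d. Among all genes tested 0.554% were, so these counts say little about the markers. At 3 d Rubisco activase RCA had a log2 fold change of -0.12 ± 0.06, PYK10 -0.09 ± 0.06 and the nitrate transporter gene NRT2.1 -1.15 ± 0.51. Among the 6 root genes 4 had negative values and 2 positive ones, CASP1 at 0.05 ± 0.10 and MYB36 at 0.21 ± 0.32. Whole seedlings are mixtures, and fewer cells of a type cannot be told apart from less RNA per cell.

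The S1 and C transcripts differ in build, and this bears on what a transcript count can say about each. The sequences shown are the last 30 bases, stop codon included, of the upstream reading frame in each S1 leader, given because they are the segment shared by the transcripts under sucrose control. They were read from the RefSeq TAIR10.1 genome, 5′ to 3′ on the coding strand, and capitals mark the 11 positions with the same base in all 5.
bZIP1, chr5:20052105-20052134, plus strand: attCTtcAtTggtttTAcgttaTcTCtTgA
bZIP2, chr2:7898917-7898946, minus strand: ttcCTctAcTggtttTAcaacgTtTCaTgA
bZIP11, chr4:16522197-16522226, plus strand: ttcCTttAcTggcttTActatgTcTCaTgA
bZIP44, chr1:28292051-28292080, plus strand: tttCTctAcTggttcTAtgtttTcTCaTaA
bZIP53, chr3:23092467-23092496, minus strand: tacCTctAcTacaccTAcgtttTcTCaTgA

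Between any pair of the S1 genes, 17 to 25 of the 30 bases were identical, with bZIP2 and bZIP11 the most alike and bZIP1 and bZIP53 the least. Each S1 leader held 1 upstream reading frame of at least 20 codons, 25 codons long in bZIP1, 28 in bZIP53, 41 in bZIP2 and bZIP44, and 42 in bZIP11. The S1 leaders ran from 316 bases in bZIP1 to 588 in bZIP11. The C leaders ran from 59 bases in bZIP9 to 158 in the longest bZIP63 transcript, and held 0 such reading frames. The S1 transcripts have 1 exon, apart from 1 of the 2 bZIP44 transcripts, which has 2, while the C transcripts have 5 to 7 exons.

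**Figure D1:**
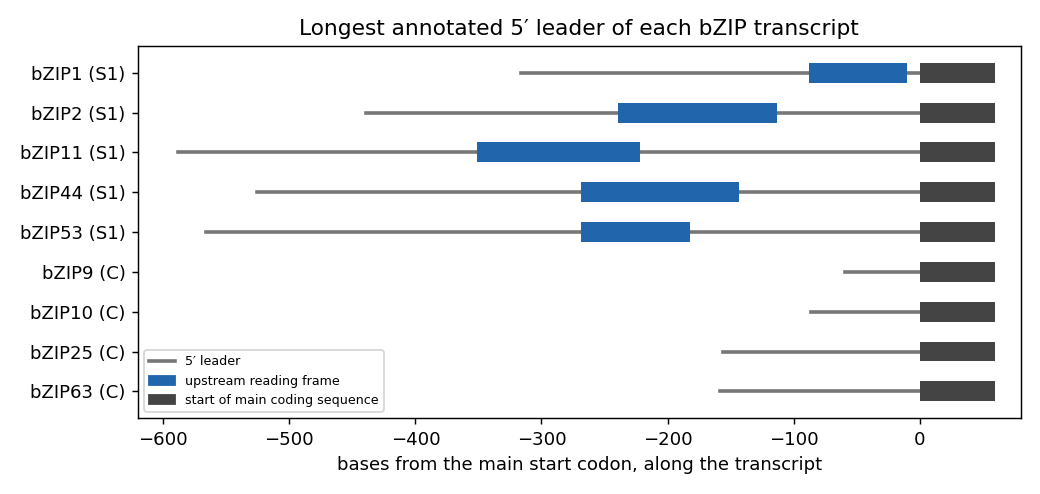
Longest annotated 5′ leader of each bZIP transcript, drawn in bases along the transcript from the main start codon, with upstream reading frames of at least 20 codons in blue. The 5 S1 genes each carry 1 such frame, the frame of bZIP1 ends nearest to the main start codon, and the 4 C genes carry 0.

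For each of the 5 S1 genes, another locus code in the count table carried the same count in every library, which was so for 0 of the 4 C genes. One set of reads is therefore entered under both codes, and counts of genes over the whole table include both. No other place in the genome shared at least 100 bases at 95% identity with any of the 9 genes. The 3′ end of bZIP9 overlaps AT5G24810 on the opposite strand by 35 bases, that of bZIP53 lies 5 bases from the 3′ end of AT3G62410 on the opposite strand, and bZIP10 ends 22 bases before AT4G02650 on the same strand. Whether the counting used strand is not stated, so reads near the ends of bZIP9 and bZIP53 may belong to the neighbour. A strand setting would not separate bZIP10 from AT4G02650, which had too few counts to be tested.

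All 9 factors passed the filter on low counts, which left 18419 genes for testing, and all were detected in each of the 14 libraries, with 27 to 2228 counts. Their levels are given as CPM after TMM scaling, which sets the libraries to a common effective size. Differences are log2 fold changes with their standard error (SE) and 95% interval from edgeR's quasi-likelihood test, and a change was called where the p-value, adjusted by Benjamini-Hochberg over all genes tested, was under 0.05. Because reads come from 3′ ends and no length scaling applies, levels are compared between libraries of 1 gene and not between genes.

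**Figure D2:**
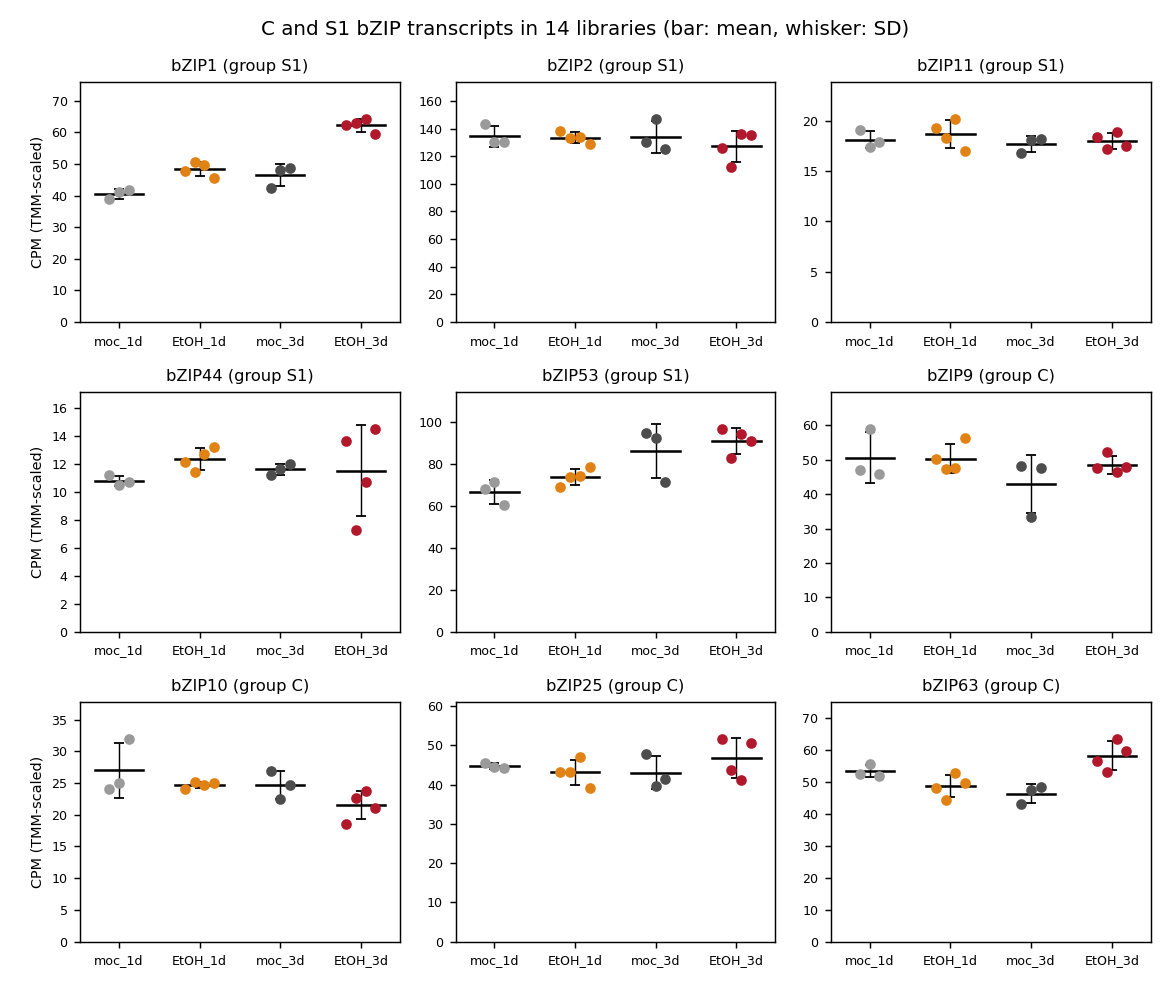
CPM of each of the 9 bZIP transcripts in the 14 libraries, 1 panel per gene with its own vertical axis from 0, bars showing group means and whiskers the SD. The 4 EtOH_3d libraries of bZIP1 lie between 59.4 and 64.3 CPM, above the other 10 libraries, while the groups of bZIP2 and bZIP11 overlap.

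bZIP1 was higher after ethanol, and of the 9 factors only this one passed the test in an ethanol comparison of the 14 libraries. bZIP1 is an S1 factor known for its part in the response to darkness and low sugar. After 1 d it measured 38.9, 41.0 and 41.7 CPM in the 3 moc_1d libraries and 47.9, 50.6, 49.6 and 45.5 CPM in the 4 EtOH_1d libraries. After 3 d it measured 42.4, 48.0 and 48.9 CPM in the moc_3d libraries and 62.5, 63.1, 64.3 and 59.4 CPM in the EtOH_3d libraries. At both durations the lowest ethanol library exceeded the highest control library used, and the EtOH_3d libraries were the highest of all 14. The control library left out for carrying both labels held 55.8 CPM, above every EtOH_1d library.

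The group means of bZIP1 were 40.5 ± 1.5 CPM (SD, n = 3) in moc_1d, 48.4 ± 2.2 (n = 4) in EtOH_1d, 46.5 ± 3.5 (n = 3) in moc_3d and 62.3 ± 2.1 (n = 4) in EtOH_3d. In this order of levels, moc_1d lay below moc_3d without overlap, moc_3d and EtOH_1d overlapped, and EtOH_3d stood above all. At 3 d the log2 fold change was 0.42 ± 0.09 (SE), a 1.34-fold difference with a 95% interval of 0.24 to 0.59 and an adjusted p of 0.00619 by edgeR. At 1 d it was 0.26 ± 0.09, with an interval of 0.09 to 0.43, and did not pass at an adjusted p of 0.788. The difference between these responses was 0.16 ± 0.12, with an interval of -0.08 to 0.41 and an adjusted p of 0.952, so a larger response at 3 d was not shown.

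Averaged over both durations, the ethanol effect on bZIP1 was 0.34 ± 0.06, with an interval of 0.22 to 0.46 and an adjusted p of 0.000806 by edgeR. This mean effect stayed between 0.31 and 0.36 when each library was left out in turn, with adjusted p from 0.000762 to 0.00916. The 3 d call was lost without moc_3d replicate 1, the lowest 3 d control for bZIP1 and the one apart on the second component, where the log2 fold change was 0.36 and the adjusted p 0.107. The library with both labels held 55.8 CPM of bZIP1, more than any other control library or any EtOH_1d library and less than any EtOH_3d library. With that library entered under both labels, the 3 d value was 0.35 with an adjusted p of 0.0717 and the mean effect 0.24 with an adjusted p of 0.0688. Entered once, as moc_3d, it gave 0.35 with an adjusted p of 0.0187, and as moc_1d it lowered the 1 d value to 0.14.

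bZIP63, the C factor that SnRK1 phosphorylates, had the next largest value after 3 d. It measured 43.2, 47.7 and 48.5 CPM in the moc_3d libraries and 56.7, 53.2, 63.7 and 59.9 CPM in the EtOH_3d libraries. After 1 d it measured 52.7, 55.7 and 52.1 CPM in moc_1d and 48.2, 44.3, 52.8 and 49.8 CPM in EtOH_1d. The 3 d groups did not overlap, with ethanol above control, whereas at 1 d the groups overlapped and the ethanol mean lay below.

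The log2 fold change of bZIP63 at 3 d was 0.33 ± 0.09, with an interval of 0.15 to 0.51, and just missed the threshold at an adjusted p of 0.0662 by edgeR. At 1 d it was -0.13 ± 0.08, with an interval of -0.30 to 0.04. The difference between the responses was 0.46 ± 0.12, with an interval of 0.22 to 0.71, an unadjusted p of 0.000406 and an adjusted p of 0.216 over all genes, so it was not called. The call at 3 d depended on the setting, since DESeq2 gave an adjusted p of 0.0373, leaving out the shallow EtOH_3d replicate 2 gave 0.0424, and leaving out moc_3d replicate 1 gave 0.375. The controls of bZIP63 were themselves not level, at 53.5 ± 1.9 CPM in moc_1d and 46.5 ± 2.9 in moc_3d (SD, n = 3 each), a log2 difference of -0.20 ± 0.09 with an adjusted p of 0.48.

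bZIP53, an S1 factor best known from seed maturation and low-energy responses, was called between durations and not between ethanol and control. It measured 68.2, 71.4 and 60.5 CPM in moc_1d and 69.1, 73.8, 74.3 and 78.7 CPM in EtOH_1d. It measured 94.9, 92.7 and 71.5 CPM in moc_3d and 96.9, 82.7, 94.2 and 90.9 CPM in EtOH_3d. Within each duration the ethanol and control libraries overlapped, and the 3 d libraries lay above the 1 d libraries of the same treatment, with the closest controls at 71.5 and 71.4 CPM. The control library left out for carrying both labels held 76.9 CPM, above the lowest moc_3d library, so as moc_1d it would undo this separation of the controls.

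The 3 d controls of bZIP53 exceeded the 1 d controls by 0.36 ± 0.09 on the log2 scale (edgeR adjusted p = 0.0272), and the 3 d ethanol libraries exceeded the 1 d ones by 0.31 ± 0.08 (adjusted p = 0.0283). Both calls sit near the threshold. With the library of both labels entered as moc_1d, the control difference was 0.31 and not called (edgeR adjusted p = 0.124). As moc_3d it gave 0.32 and the call was kept (0.0346). Under both labels neither call was kept, with adjusted p of 0.343 for controls and 0.0539 for ethanol groups. The control call was lost without moc_1d replicate 2 or 4 or moc_3d replicate 1 or 2, with values of 0.29 to 0.49 over all libraries left out in turn, and the ethanol call without EtOH_1d replicate 1, 2 or 3 or EtOH_3d replicate 1, 3 or 4, with values of 0.27 to 0.35. Duration and age at the start of treatment differ together between these groups and cannot be told apart. The ethanol effect on bZIP53 was 0.14 ± 0.08 at 1 d (interval -0.02 to 0.31) and 0.09 ± 0.08 at 3 d (interval -0.08 to 0.26). The convergent neighbour AT3G62410, annotated as a CP12 domain-containing protein, had a log2 difference of 0.16 ± 0.07 between the control groups and -0.03 ± 0.06 between the ethanol groups, neither of them called.

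The remaining S1 factors did not pass the test in any of the 6 comparisons. bZIP11, the S1 factor most studied for sucrose control and auxin-linked growth, ranged from 16.8 to 20.2 CPM over the 14 libraries, and its ethanol effect was 0.04 ± 0.12 at 1 d (interval -0.20 to 0.29) and 0.02 ± 0.13 at 3 d (-0.24 to 0.29). bZIP2, a close relative of bZIP11, ranged from 112 to 147 CPM, with effects of -0.01 ± 0.07 (-0.15 to 0.13) and -0.08 ± 0.07 (-0.22 to 0.07).

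bZIP44 was the S1 transcript with the fewest reads. It measured 11.2, 10.5 and 10.7 CPM in moc_1d and 12.1, 11.4, 12.7 and 13.2 CPM in EtOH_1d, without overlap, but the log2 fold change of 0.19 ± 0.16 had an interval of -0.13 to 0.51. In EtOH_3d it measured 13.6, 7.25, 10.7 and 14.5 CPM, and the lowest of these values is 27 counts in the shallowest library. The 3 d effect was 0.01 ± 0.17, with an interval of -0.34 to 0.36, and moved between -0.11 and 0.15 when each library was left out.

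The C factors beside bZIP63 did not pass the test in any of the 6 comparisons. bZIP10 and bZIP25 are factors that act with bZIP53 on seed storage genes. bZIP10 measured 26.9, 22.4 and 24.7 CPM in moc_3d and 18.6, 22.6, 23.8 and 21.1 CPM in EtOH_3d, which overlap, with an effect of -0.19 ± 0.13 (interval -0.44 to 0.06) against -0.12 ± 0.11 (-0.34 to 0.11) at 1 d. Its EtOH_3d libraries all lay below its EtOH_1d libraries, with a log2 difference of -0.20 ± 0.11 that was not called (adjusted p = 0.593).

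bZIP9, a C factor linked to the vascular tissue, had effects of -0.01 ± 0.10 (interval -0.21 to 0.19) at 1 d and 0.17 ± 0.11 (-0.05 to 0.39) at 3 d. Its overlapping neighbour AT5G24810 had 0.08 ± 0.15 at 1 d and 0.25 ± 0.16 at 3 d, neither of them called. Whether reads of that neighbour enter the bZIP9 counts was not tested. moc_3d replicate 2 was low, at 33.3 CPM against 48.1 and 47.7 in the other 3 d controls, and the 3 d value ranged from 0.01 to 0.26 over the libraries left out in turn. bZIP25 ranged from 39.0 to 51.7 CPM over all libraries, with effects of -0.06 ± 0.09 (-0.24 to 0.13) at 1 d and 0.13 ± 0.10 (-0.07 to 0.33) at 3 d.

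**Figure D3:**
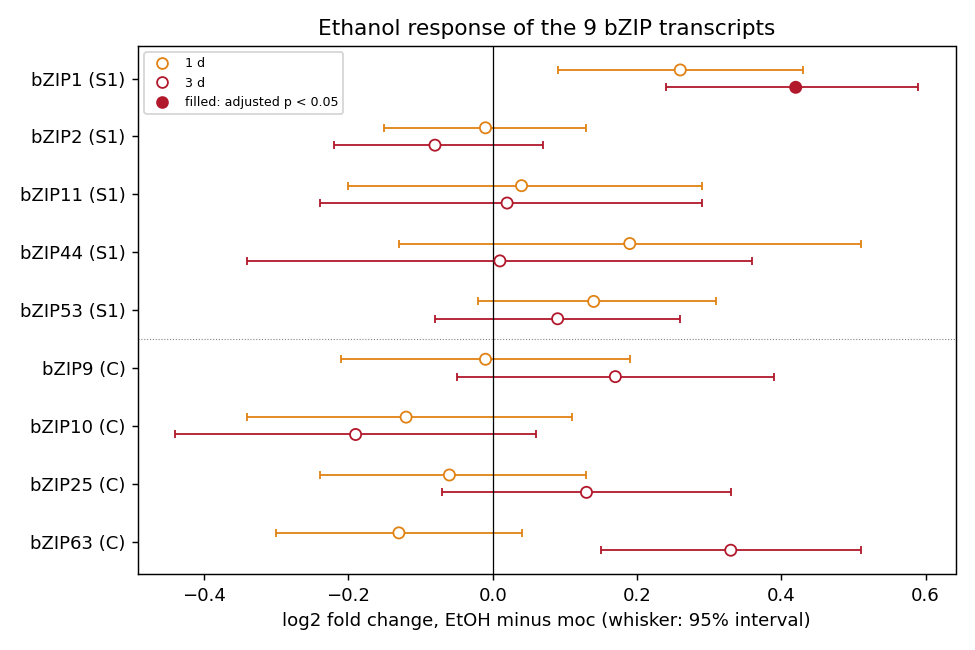
Log2 fold change of each bZIP transcript under ethanol at 1 d (orange) and 3 d (red), with 95% intervals, filled where the adjusted p was under 0.05. The 3 d value of bZIP1 (0.42) is filled, and the intervals of the other factors include 0 apart from bZIP1 at 1 d and bZIP63 at 3 d.

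Across the family, 0 of 9 factors were called at 1 d, where 0% of all genes tested were called by edgeR. At that duration 795 of 18419 genes had an unadjusted p under 0.05, bZIP1 among them, and DESeq2 called 0 genes. These 795 are fewer than that threshold alone would pass if no gene changed, so a place among them says little about bZIP1. At 3 d, 1 of 9 was called against 0.554% of all genes, which is 102 genes, 81 of them higher. For the difference between the responses 0 of 9 were called against 0.0434% of genes, or 8, and for the mean ethanol effect 1 of 9 against 0.516%.

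Between the control groups 1 of 9 factors was called against 0.842% of genes, and between the ethanol groups 2 of 9, bZIP1 and bZIP53, against 1.00%. The change of bZIP1 between the ethanol groups was 0.37 ± 0.08 (adjusted p = 0.00514), and that between the control groups was 0.20 ± 0.09 (adjusted p = 0.466).

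Libraries of the groups compared did not overlap for 2 of 9 factors at 1 d, bZIP1 and bZIP44, against 6.12% of genes, and for 2 of 9 at 3 d, bZIP1 and bZIP63, against 7.75%. Between the controls this held for 3 of 9 against 15.7%, with bZIP1 and bZIP53 higher and bZIP63 lower at 3 d. Between the ethanol groups it held for 4 of 9 against 5.90%, with bZIP1, bZIP53 and bZIP63 higher and bZIP10 lower at 3 d. The median log2 fold change of the 9 was -0.01 at 1 d and 0.09 at 3 d, beside 0.0 over all genes at each duration, and the median size regardless of sign was 0.12 and 0.13, beside 0.10 and 0.13 over all genes.

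The 9 transcripts did not move as a block. Over the 36 pairs, Pearson's r of log2 CPM in the 14 libraries ran from -0.66, for bZIP1 with bZIP10, to 0.61, for bZIP1 with bZIP53, with a median of 0.045 and 19 pairs positive. Once group means were subtracted, the value was 0.05 for bZIP1 with bZIP10 and -0.47 for bZIP1 with bZIP53. These values describe libraries that share depth and scaling and carry no test.

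The transcripts most like bZIP1 were searched among 11097 genes with a mean of at least 10 CPM. The nearest was AT3G15450, annotated as an aluminum induced protein with YGL and LRDR motifs, with r = 0.972 over the 14 libraries and 0.728 within groups. Its mean was 684 CPM in moc_1d against 817 in EtOH_1d, and 848 in moc_3d against 1167 in EtOH_3d. Next was DYL1 (AT1G28330), a dormancy-associated protein-like gene, with r = 0.94 and 0.777 within groups, and means of 209 and 254 CPM at 1 d and 229 and 307 CPM at 3 d, control first. Both followed the order of bZIP1 in that EtOH_3d was highest and moc_1d lowest, which their selection by r made probable.

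**Figure D4:**
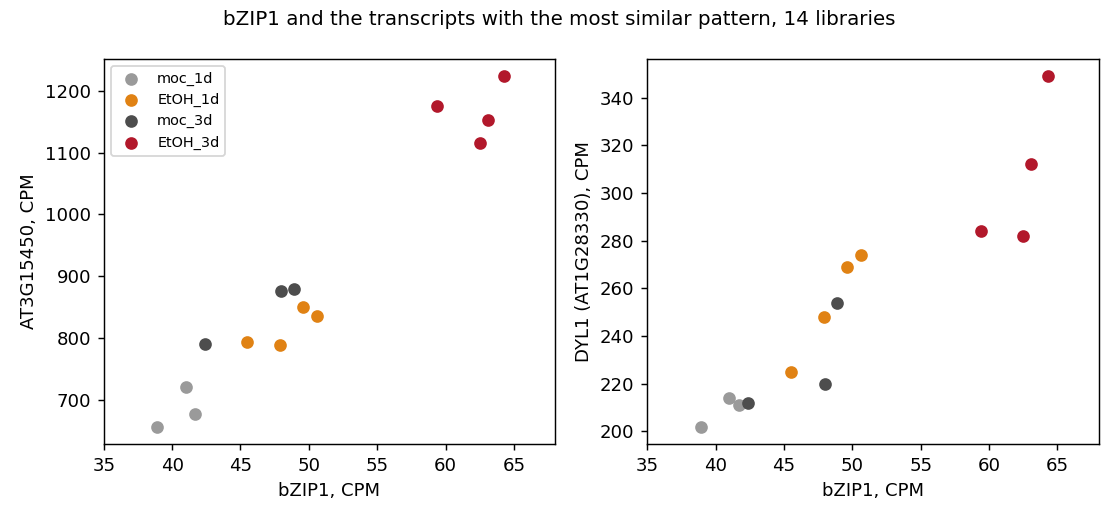
CPM of AT3G15450 (left) and DYL1 (right) against CPM of bZIP1, 1 point per library, coloured by group, with axes that do not start at 0. The 4 EtOH_3d libraries form the upper right in both panels, with r of log2 CPM of 0.972 and 0.94.

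For the other factors the closest patterns had r between 0.799 and 0.917 and differed from factor to factor. These are the highest values picked from at least 11097 genes over 14 libraries. A search of that size can yield high r by itself, and the values carry no test. bZIP53 was followed most closely by AT1G67910 (r = 0.917) and AT5G09960 (r = 0.9), and bZIP63 by BGAL1, a beta-galactosidase gene (r = 0.862), and KCS16, a ketoacyl-CoA synthase gene (r = 0.857). BGAL1, like bZIP63, had its lowest mean in the 3 d controls, with a mean of 165 CPM against 198 in moc_1d, 182 in EtOH_1d and 216 in EtOH_3d. Its selection by r made such a likeness probable. bZIP44 was closest to PRF3, a profilin gene (r = 0.917), and AT5G41350 (0.886), and bZIP9 to AT4G39520 (0.874) and SCAMP2, a secretory carrier membrane protein gene (0.819). bZIP2 was closest to CGR3 (0.853) and AT2G15560 (0.827), and bZIP11 to GLL22 (0.821) and AGP14, an arabinogalactan protein gene (0.813). bZIP10 was closest to AT1G21590 (0.856) and c-NAD-MDH2, a malate dehydrogenase gene (0.848), and bZIP25 to GIP2 (0.849) and FBA6, an aldolase gene (0.799).

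Of 9 genes reported elsewhere as targets of these factors, 1 was called at 3 d, against 0.554% of all genes. They comprise genes of amino acid breakdown and storage (ASN1, PRODH1, PRODH2, BCAT2, TAT7, ETFQO), auxin genes (IAA3, ARF19) and the clock gene PRR7. At 3 d, 8 of 9 had positive values, from 0.01 for PRR7 to 0.94 for BCAT2, and the libraries of 3 of the 9 did not overlap, against 7.75% of genes. The negative value was that of PRODH2, at -0.27 ± 0.36. The median log2 fold change was 0.27, beside 0.0 over all 18419 genes, of which 9165 had positive values. At 1 d 6 of 9 had positive values, against 9395 of 18419 genes, with a median of 0.02 and 0 called. This list was drawn up with results of these data known.

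BCAT2 (AT1G10070), a branched-chain amino acid aminotransferase, measured 6.77, 4.01 and 4.92 CPM in moc_3d and 14.5, 5.64, 10.2 and 8.33 CPM in EtOH_3d. It rose by 0.94 ± 0.24 (edgeR adjusted p = 0.0442), although EtOH_3d replicate 2 lay within the control range. DESeq2 returned no adjusted p for BCAT2. The call was lost without any of moc_1d replicates 2, 3 and 4, EtOH_1d replicate 2, moc_3d replicates 2 and 4 and EtOH_3d replicates 1 and 3, with values of 0.69 to 1.14 over all libraries left out in turn.

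ASN1 (AT3G47340), the asparagine synthetase gene long used as a marker of low sugar, measured 93.7, 76.0 and 90.4 CPM in moc_3d and 116, 159, 158 and 129 CPM in EtOH_3d. The groups did not overlap, and the log2 fold change was 0.70 ± 0.18 with an interval of 0.29 to 1.11 and an adjusted p of 0.219 by edgeR against 0.012 by DESeq2. PRODH1 (AT3G30775), the proline dehydrogenase gene, measured 25.8, 34.3 and 34.8 CPM in moc_3d and 57.7, 38.4, 52.3 and 53.0 CPM in EtOH_3d, also without overlap. Its log2 fold change was 0.67 ± 0.28, with an interval of 0.06 to 1.28 and an adjusted p of 0.511.

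**Figure D5:**
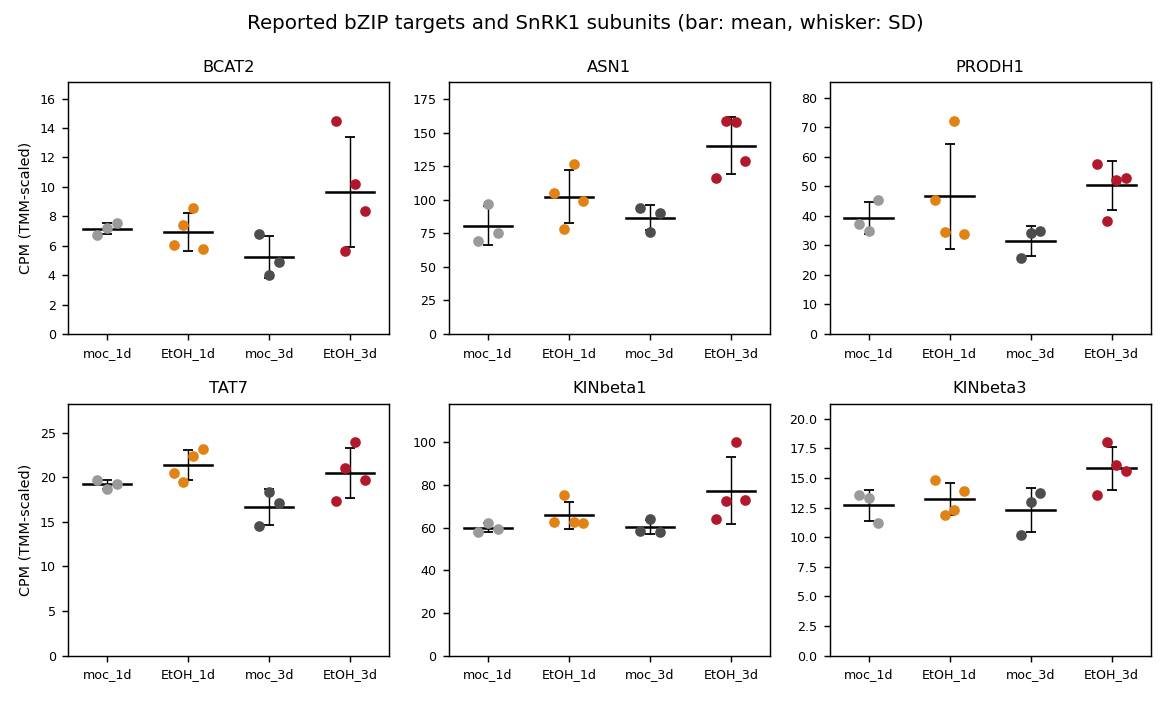
CPM of 4 reported target genes and 2 SnRK1 subunit genes in the 14 libraries, 1 panel per gene with its own vertical axis from 0, bars showing group means and whiskers the SD. EtOH_3d libraries of ASN1 (116 to 159 CPM) lie above those of moc_3d (76.0 to 93.7 CPM), and those of BCAT2 overlap the controls.

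The upstream regions of ASN1 and PRODH1 are shown because C and S1 pairs are known to act on these promoters, and both genes were picked after their values were seen. Each is the 250 bases before the annotated gene start, from the RefSeq TAIR10.1 genome on the coding strand, with capitals marking a G-box (CACGTG) in ASN1 and an ACTCAT element, here read as its reverse complement ATGAGT, in PRODH1.
ASN1, chr3:17441432-17441681, minus strand: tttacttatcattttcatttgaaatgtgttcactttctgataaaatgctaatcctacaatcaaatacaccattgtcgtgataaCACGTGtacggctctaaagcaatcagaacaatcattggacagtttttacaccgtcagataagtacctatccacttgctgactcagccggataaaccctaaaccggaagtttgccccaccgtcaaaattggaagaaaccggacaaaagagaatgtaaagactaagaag
PRODH1, chr3:12451557-12451806, minus strand: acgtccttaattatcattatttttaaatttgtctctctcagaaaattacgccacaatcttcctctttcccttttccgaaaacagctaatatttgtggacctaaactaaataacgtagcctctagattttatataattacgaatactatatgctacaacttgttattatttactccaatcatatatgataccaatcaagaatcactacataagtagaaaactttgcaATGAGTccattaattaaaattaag

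Windows of this length were searched on both strands for ACTCAT, the G-box CACGTG, the C-box GACGTC and the core ACGT, which also lies inside both boxes. Of the 9 bZIP genes, 0 held ACTCAT, 0 a G-box, 0 a C-box and 3 the core. Of the 9 reported targets, 3 held ACTCAT (PRODH1, IAA3 and PRR7), 2 a G-box (ASN1 and PRR7), 0 a C-box and 5 the core. BCAT2, the target called at 3 d, held the core but no ACTCAT or G-box. PRR7, with both, had a 3 d log2 fold change of 0.01. Among 27443 windows of all genes the shares were 12.3% for ACTCAT, 6.49% for the G-box, 2.27% for the C-box and 44.1% for ACGT. A match describes the letters in the window and does not show binding.

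Transcripts for subunits of SnRK1, the kinase ahead of bZIP63, were called at 3 d in 0 of 6 cases, where 0.554% of all genes were, so this count says little about the subunits. The largest value was that of KINbeta1, a beta subunit, which measured 58.5, 64.1 and 58.0 CPM in moc_3d and 64.2, 72.5, 99.9 and 72.8 CPM in EtOH_3d. Its lowest ethanol library lay just above its highest control, and the log2 fold change was 0.37 ± 0.10 with an adjusted p of 0.128 by edgeR. Without the filter on low counts KINbeta1 was called, at 0.36 with an adjusted p of 0.00667, while DESeq2 did not call it (adjusted p = 0.0713). KINbeta3 had 0.34 ± 0.16 (adjusted p = 0.522) and the catalytic subunit KIN11 0.17 ± 0.14 (adjusted p = 0.774). The other 3 of the 6 had negative values, the catalytic subunit KIN10 at -0.07 ± 0.14, KINbeta2 at -0.14 ± 0.13 and SNF4 at -0.16 ± 0.27. The median of the 6 was 0.05.

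Among 12 other bZIP genes of the ABF, GBF and HY5 kinds, which bind similar elements, 0 were called at 3 d, against 0.554% of all genes, and 8 had positive values, against 9165 of 18419 genes. ABF4, an abscisic acid response factor, had 0.31 ± 0.13 (adjusted p = 0.443), ABF1 had 0.20 ± 0.10 (adjusted p = 0.574) and HYH, a light response factor, -0.30 ± 0.18 (adjusted p = 0.661). The median of these 12 was 0.07, beside 0.09 for the 9 C and S1 factors. Of 5 seed genes under bZIP53 control in embryos, 0 passed the filter on low counts, and together they reached at most 1.29 CPM in a library.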

How the data were processed

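Whole-seedling RNA was profiled by Lasy-Seq in 16 columns of 4 groups. Per the submitters' processing notes, the tools were HISAT2, featureCounts, DESeq2, Trimmomatic and bcl2fastq, with no versions, and the genome was TAIR10. The strand setting of counting is not stated. The deposited counts are whole reads per gene for 27416 genes, with no normalization, and were the input here. A signal deposited beside them is each count over a factor of its library (100% of values within 0.011) and was not tested. Of 120 column pairs 1 was identical, and 14 columns were used.

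Genes were filtered with filterByExpr, scaled by TMM and tested two-sided with edgeR 4.0.16 in R 4.3.3 in 1 quasi-likelihood fit of the 4 groups, with Benjamini-Hochberg adjustment at 0.05. SE and 95% intervals were derived from the test statistic. The procedure was tested on simulated data. Replicate pairs differed beyond counting noise (chi-square per gene 2.52 to 5.49). A count of 3 equals 0.188 to 0.812 CPM, and such floors cover counting error only. Replicate numbers did not pair libraries (correlations of deviations from -0.079 to 0.059 over 18 same-numbered pairs).

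The 9 factors and all gene lists were chosen with earlier results of these data known. Genes named are the 9 factors, the 2 with the highest r to each (log2 CPM, prior count 2, equal or overlapping loci left out), and from each list those called at 3 d or else the 3 with the smallest p. ASN1, PRODH1 and TAT7 were added after their values were seen. Values of CASP1, MYB36, PRODH2, KIN10, KINbeta2 and SNF4 were added because they go the other way from those named. Shoot and root markers were summed and tested in the same fit. Alternatives were DESeq2 1.42.0, its size factors in edgeR, no filter beyond 1 count, a replicate block, the shared library kept under either label or both, and each of the 14 libraries left out.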

Additional observations from a re-analysis of the deposited data

How the results depend on the processing

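For the 9 factors, 1130 values were recomputed under 21 alternatives in 6 comparisons: 1111 kept their side of the threshold, 16 lost a call, 3 gained one and 0 called values changed sign, while 41 uncalled values did. Of 551 values of listed genes at 3 d, 15 changed side. The replicate block moved no factor across the threshold. It gave 12 genes called at 1 d in place of 0, and 109, 10, 126, 146 and 250 in the other comparisons (3 d, difference of responses, mean effect, controls, ethanol groups). Under the block BCAT2 lost its call (adjusted p = 0.0902) and ASN1 gained one (0.0243). DESeq2 called 2 factors and 128 genes at 3 d, and 16 genes in the difference of responses. Keeping the shared library as moc_3d gave 2 factors and 106 genes at 3 d. Without a low-count filter the counts of genes were 28, 196, 47, 171, 283 and 313 in that order with 1 d first. With all 16 columns they were 2 at 1 d, 66 at 3 d and 0 for the difference. They were 66 for the mean effect, 5 for controls and 131 for ethanol groups. In that setting 0 factors were called at 3 d, 0 in the mean effect, 0 between controls and 1 between ethanol groups. With the shared library as moc_1d the counts were 2 at 1 d, 4 for the difference and 19 for controls, with 0 factors called between controls. BCAT2 then had an adjusted p of 0.0678. Leaving out each library gave 0 to 5 genes at 1 d, 43 to 124 at 3 d and 1 to 23 for the difference. It gave 54 to 116 genes for the mean and 67 to 158 for controls. Factors called numbered 0 to 2 at 3 d, 0 to 1 between controls and 1 to 2 between ethanol groups. All 14 libraries together gave 185 genes called between ethanol groups. The cause was not tested. Depth limits bZIP44 most, at 27 counts in the shallowest library.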

Other observations

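The library that carries both control labels was left out of the comparisons and held 55.8 CPM of bZIP1, 139 of bZIP2, 22.1 of bZIP11, 9.89 of bZIP44 and 76.9 of bZIP53. Among the C factors it held 45.1 CPM of bZIP9, 23.0 of bZIP10, 43.0 of bZIP25 and 46.4 of bZIP63. Its bZIP11 value was above those of all 14 libraries used, and its bZIP1 value lay between the 1 d ethanol libraries and the 3 d ethanol libraries.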
